A study of Homo sapiens with 8 samples.

Results

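The genes described here encode the collagens, the laminins and a set of matrix glycoproteins of human cells. They were chosen by symbol: every collagen chain gene (COL followed by a type and a chain number), every laminin alpha, beta or gamma chain gene, and FN1, SPARC, FBN1, FBN2, NID1, NID2, HSPG2, AGRN, TNC, THBS1 and THBS2. The rule used no measured value, and it found 67 of the 78691 genes of the count table. RNA sequencing was available for 8 libraries, 2 per group, from a pair of prostate cancer cell lines in which MYCL, the gene of the MYC family transcription factor L-MYC, was raised or lowered. C4-2B is a castration-resistant prostate adenocarcinoma line, and its cells were transduced with lentivirus, either without insert (control) or with human MYCL driven by the EF1A promoter and linked to EGFP (MYCL). NCI-H660 is a neuroendocrine prostate cancer line, and it carried a non-targeting shRNA (shCtrl) or shRNA against MYCL (shMYCL). Both lines were grown in RPMI-1640 with 10% fetal bovine serum, the NCI-H660 cells with further supplements.

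Each group is a transduced pool of 1 cell line, with no second line of its kind. The series names an adenoviral vector for the knockdown, while the protocol of the samples speaks of cells collected after stable knockdown. Line, vector system and culture therefore differ together between C4-2B and NCI-H660 and cannot be told apart. The C4-2B control libraries are labelled as biological replicates and the other 6 only as replicates, so that p-values measure the spread between these samples, which may be technical. In such bulk libraries, fewer cells that make a transcript and less of it per cell cannot be told apart.

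Collagens are built from 3 chains wound into a triple helix, and most types need defined partners: COL1A1 pairs with COL1A2, COL4A1 with COL4A2, COL4A5 with COL4A6, and COL6A1 with COL6A2 and a further chain. Collagen chains are hydroxylated and folded in the endoplasmic reticulum, with the aid of the collagen chaperone SERPINH1, and fibrillar collagens are cross-linked outside the cell by lysyl oxidases. Laminins are trimers of an alpha, a beta and a gamma chain that assemble into the basement membrane, the sheet beneath epithelia, where nidogens, the proteoglycans HSPG2 (perlecan) and AGRN (agrin) and collagen IV are joined to them. Carcinoma cells make much of their own basement membrane, while stromal fibroblasts are the main source of fibrillar collagen in the prostate.

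The genes COL4A1 and COL4A2 lie head to head and share a promoter region, and the same holds for the other collagen IV gene pairs. By RefSeq on GRCh38.p14 the starts of COL4A1 and COL4A2 are separated by 126 bases, those of COL4A4 and COL4A3 by 418 bases, and those of COL4A6 and COL4A5 by 379 bases. The first of these stretches is shown because RNA of COL4A2 was found in all libraries and that of COL4A1 in few, and the upstream stretches of SPARC and TNC because these genes had the largest fall and the largest rise after MYCL knockdown. Capitals mark CCAAT and GGGCGG, the letters bound by NF-Y and by Sp1, searched on both strands. Each stretch is read 5′ to 3′ on the strand given, from RefSeq on GRCh38.
COL4A1 to COL4A2, chr13:110307158-110307283, plus strand: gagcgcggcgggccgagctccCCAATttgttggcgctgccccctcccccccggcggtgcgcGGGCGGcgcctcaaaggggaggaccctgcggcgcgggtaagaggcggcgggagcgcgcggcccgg
SPARC, chr5:151686976-151687165, minus strand: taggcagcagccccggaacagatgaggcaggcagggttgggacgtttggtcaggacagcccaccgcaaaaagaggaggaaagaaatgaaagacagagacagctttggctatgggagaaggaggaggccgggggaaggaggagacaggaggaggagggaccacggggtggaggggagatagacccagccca
TNC, chr9:115118208-115118407, minus strand: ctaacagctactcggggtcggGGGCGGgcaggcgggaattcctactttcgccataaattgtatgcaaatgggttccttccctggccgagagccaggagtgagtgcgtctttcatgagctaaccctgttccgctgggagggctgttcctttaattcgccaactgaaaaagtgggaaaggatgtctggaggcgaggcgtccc

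The stretch between the collagen IV genes was the richest in G and C, at 80.2%, against 60.0% for SPARC and 56.0% for TNC. RefSeq promoters of 300 bases, from 250 before to 50 after the start, were found for 51 of the 67 matrix genes. CACGTG, the letters bound by MYC family proteins with MAX, was present in 1 of these promoters, that of FBN2, or 1.96%, against 7.26% of all 35116 promoters. GGGCGG was present in 31 matrix promoters, or 60.8%, against 45.0% of all, and CCAAT in 31.4% against 34.6%. TATAAA was present in 11.8% against 11.5%, and TGACTCA, the AP-1 letters, in 1 matrix promoter, that of LAMA3, or 1.96%, against 4.95% of all. These are matches of letters within the windows only.

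MYCL itself followed the labels. It had 371 and 320 counts in the C4-2B control libraries, 65524 and 70253 in the MYCL libraries, 1863 and 1602 in shCtrl and 165 and 198 in shMYCL. The counts can include the MYCL coding sequence of the vector. Library totals ran from 15177071 to 32344170 counts, and mitochondrial genes took from 9.63% to 10.7% of the counts in C4-2B libraries and from 3.50% to 3.83% in those of NCI-H660.

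The luminal marker KLK3 stood between 893 and 1300 CPM (counts scaled to library size) in C4-2B and KLK2 between 223 and 272 CPM, and both were at 0 in NCI-H660. All 7 luminal markers summed to between 2470 and 3250 CPM in C4-2B libraries and between 7.04 and 9.41 CPM in those of NCI-H660. ACP3, of the same list, did not follow this order, with 5.62 and 4.75 CPM in C4-2B control, 1.02 and 2.47 in C4-2B MYCL and 5.31 to 5.81 in NCI-H660. The neuroendocrine marker CHGA stood at 0.26 CPM or less in C4-2B and between 113 and 129 CPM in NCI-H660, and SYP between 0.967 and 2.23 CPM and between 80.7 and 108 CPM. The 11 fibroblast and smooth muscle markers summed to 12.6 and 13.1 CPM in C4-2B control, to 19 and 25.9 CPM in C4-2B MYCL, to 4.58 and 5.10 CPM in shCtrl and to 5.08 and 8.23 CPM in shMYCL. Among them DCN and PDPN were at 0 in all 8 libraries, and PDGFRA, LUM, FAP and DES also in all 4 of C4-2B. Endothelial markers summed to at most 10.3 CPM in any library, and the 3 basal keratins KRT5, KRT14 and KRT15 to at most 5.18 CPM in C4-2B and to between 29.4 and 36.3 CPM in NCI-H660, nearly all of it KRT15.

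Matrix genes made up a small part of both transcriptomes and a larger part in NCI-H660. They held between 0.111% and 0.130% of the counts of a C4-2B library and between 0.157% and 0.197% in NCI-H660. Per length, their TPM (a share of transcripts scaled by gene length, from the table of the authors) summed to values from 194.4 to 220.9 in C4-2B libraries and from 425.3 to 502.6 in those of NCI-H660. A count was found for 46 to 51 of the 67 genes in a C4-2B library and for 57 to 60 in NCI-H660, and COL25A1 had none in any library. In C4-2B control the laminin chains LAMC1 and LAMA3 took between 31.5% and 32.5% and between 16.3% and 17.5% of the matrix counts, and fibronectin (FN1) between 15.6% and 16.5%. In shCtrl FN1 led, with between 21.1% and 21.8%, followed by the nidogen NID1, with 10.8% and 10.9%.

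**Figure D1:**
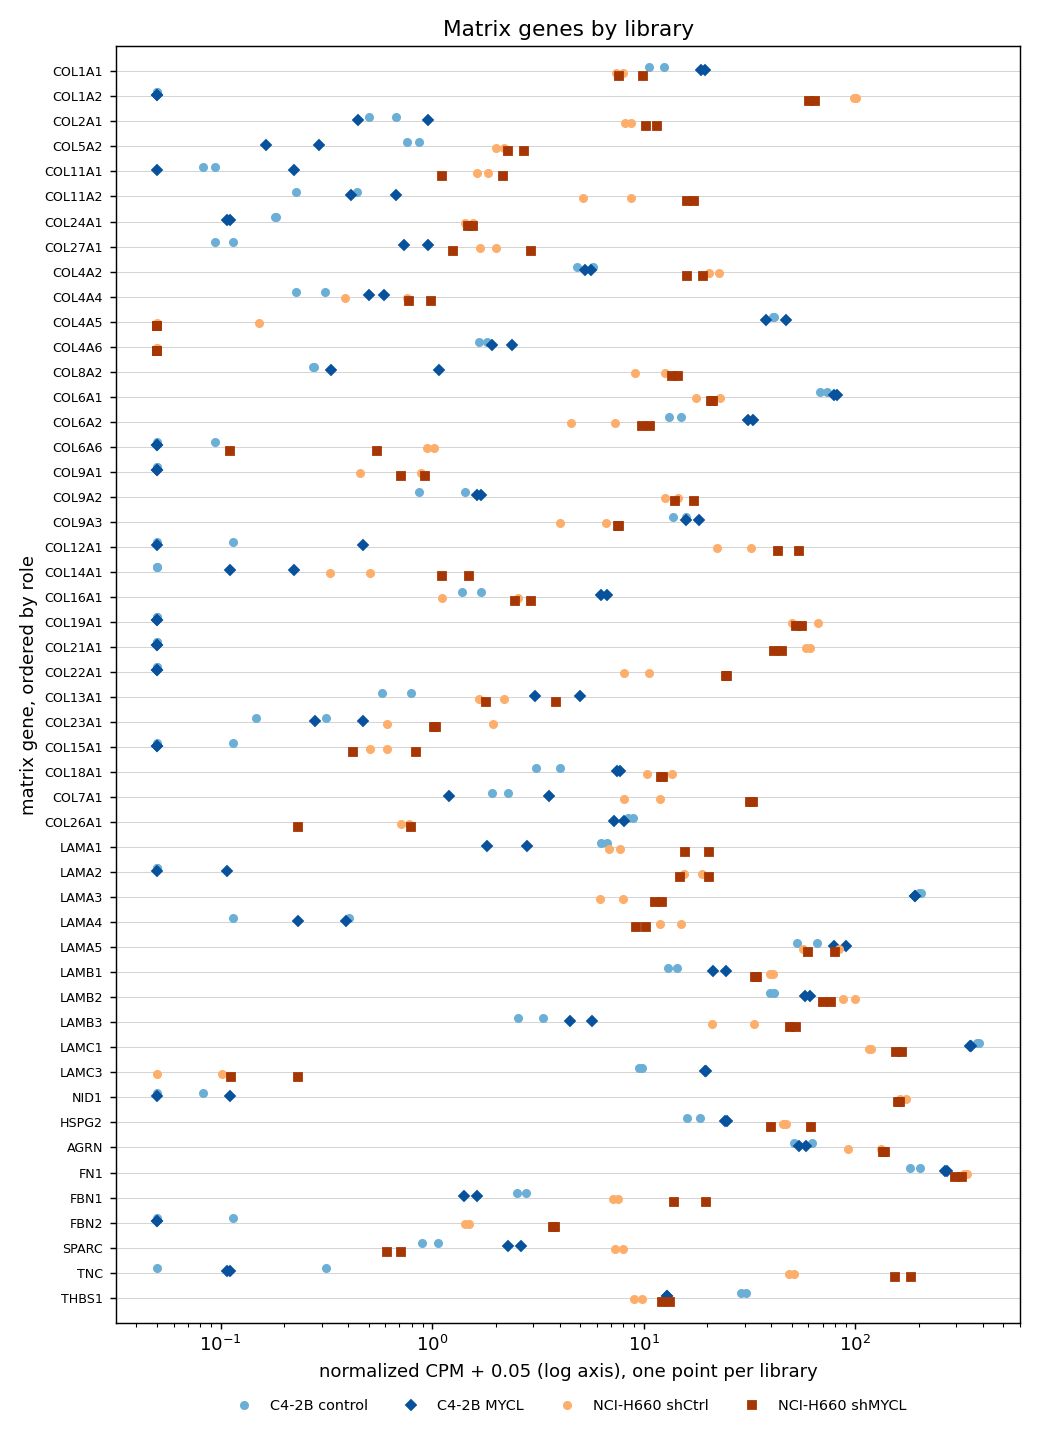
Normalized CPM plus 0.05 (log axis) of 50 matrix genes tested in the fit of all libraries, 1 point per library, ordered by role, so that a point at 0.05 is a library with no count. Genes such as COL1A2, COL19A1, COL21A1 and NID1 sit at or near the left edge in all C4-2B libraries and above 40 CPM in all NCI-H660 libraries, while COL4A5, COL4A6 and LAMC3 show the reverse order.

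The first comparison asked how far the matrix genes of the control lines differ. Of the 51 genes tested, 36 were higher and 11 lower in NCI-H660 shCtrl than in C4-2B control (edgeR's quasi-likelihood test in a fit of all 8 libraries, adjusted p under 0.05 over 19605 genes and a log2 change of at least 0.5). The lines differed at 69.8% of all genes tested, 36.5% higher and 33.3% lower. The median log2 difference was 2.27 for the matrix genes and 0.033 for all genes. Some matrix genes, such as COL1A2, COL19A1 and COL21A1, passed the filter only through the line where they are high, which set their direction and raises this median. With at least 10 counts in every library it was 0.91 for 22 matrix genes and −0.014 for all 12771. These controls are also those of the comparisons within each line. COL16A1, COL4A4, LAMA1 and LAMA5 were the 4 that did not pass. The calls of COL13A1 and COL23A1 were lost without shCtrl replicate 2 (1.33 and 1.66), and that of COL15A1 without C4-2B control replicate 2 (2.84). LAMA5 was called without shCtrl replicate 1 (0.51), and COL5A1 without C4-2B control replicate 1 (−5.52), with no count in shCtrl.

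Of the 8 fibrillar collagens tested, 7 were higher and COL1A1 lower in NCI-H660, against 36.5% and 33.3% of all genes. COL1A2, COL11A1, COL11A2 and COL24A1 did not pass the filter in C4-2B on its own. They entered the test through NCI-H660, so that the filter set their direction. COL1A2, the partner chain of COL1A1, had no count in any C4-2B library, against 1815 and 1938 counts in shCtrl, and was at least 869-fold higher there (against 3 counts per C4-2B library, the limit that a count of 0 allows). COL1A1 was measured in both lines, at 10.5 and 12.4 CPM in C4-2B control and 7.94 and 7.34 CPM in shCtrl (log2 difference −0.58, SE 0.17, adjusted p = 0.00615 by edgeR's quasi-likelihood test). That call was lost without C4-2B control replicate 2 (−0.47, edgeR adjusted p = 0.0517) and with the replicate block (−0.42, adjusted p = 0.0796). Per length, COL1A2 in shCtrl stood at 39.8 and 34.7 TPM against 2.86 and 2.41 TPM for COL1A1. COL1A1 RNA was thus present without that of its partner in C4-2B, and in NCI-H660 the partner was the more abundant of the chains. COL2A1, the cartilage fibril collagen, and COL11A2, a minor chain of such fibrils, were also higher in NCI-H660, by 3.97 (SE 0.33) and 4.51 (SE 0.39) on the log2 scale (edgeR adjusted p = 8.60e-08 and 1.35e-07).

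Several FACIT and related collagens, which decorate fibrils, were present in NCI-H660 and absent or nearly so in C4-2B. COL19A1 and COL21A1 had no count in C4-2B and were at least 505-fold and at least 517-fold higher in shCtrl, with 66.5 and 49.9 CPM and with 60.9 and 58.4 CPM. COL22A1, a collagen of tissue junctions, was at least 80.5-fold higher. COL12A1 had 2 counts in the C4-2B control libraries together, against 577 and 435 in shCtrl, a ratio of 720 (95% counting interval 199 to 5950). Of the 9 genes of this group tested, 7 were higher in NCI-H660 and 1 lower, against 36.5% and 33.3% of all genes. COL9A1, COL12A1, COL14A1, COL19A1, COL21A1 and COL22A1 had at most 2 counts in the C4-2B control libraries together. They entered the test only through NCI-H660, so that the filter set their direction. COL9A3, a collagen IX chain, was lower, at 15.8 and 13.7 CPM in C4-2B control against 3.97 and 6.58 CPM in shCtrl (log2 −1.48, SE 0.21, edgeR adjusted p = 1.78e-05).

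Collagen IV, the network of the basement membrane, was carried by different chains in each line. COL4A5 stood at 40.6 and 41.4 CPM in C4-2B control and had 0 and 2 counts in shCtrl, a ratio of 767 (95% counting interval 212 to 6340). COL4A6, its head-to-head neighbour, stood at 1.62 and 1.77 CPM in C4-2B control, had no count in any NCI-H660 library and was at least 10.6-fold higher in C4-2B. COL4A2 went the other way, with 4.81 and 5.72 CPM against 22.7 and 20.3 CPM (log2 2.04, SE 0.16, edgeR adjusted p = 5.48e-08). Its partner COL4A1 was all but absent. It had 1 and 0 counts in C4-2B control, 3 and 0 in C4-2B MYCL, 0 and 0 in shCtrl and 9 and 0 in shMYCL, while COL4A2 had between 92 and 407 counts in each library. The 126 bases shown above separate a gene with RNA in all 8 libraries from one with next to none. Some COL4A2 transcripts of GENCODE 44 start elsewhere in that region, and whether the reads of COL4A2 cover the whole gene was not tested.

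Of the 3 collagen VI genes tested, COL6A1 and COL6A2 were higher in C4-2B, where COL6A1 had the highest TPM of all collagen genes in every library. COL6A6, an alternative to the alpha3 chain, was higher in NCI-H660, with 0 and 1 counts in C4-2B control and 16 and 19 in shCtrl, a ratio of 49.8 (95% counting interval 8.37 to 2020). COL6A1 stood at 67.7 and 73.6 CPM in C4-2B control and 17.6 and 22.9 CPM in shCtrl (log2 −1.80, SE 0.12, edgeR adjusted p = 8.46e-09), and COL6A2 at 13.1 and 14.9 CPM against 4.47 and 7.24 CPM (−1.25, SE 0.19, adjusted p = 3.54e-05). The alpha3 chain COL6A3, which completes the usual trimer, had at most 8 counts in any library, and no C4-2B control library had one.

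The laminin chains also differed line by line. LAMA3, the alpha chain of the laminin of hemidesmosomes, was at 204 and 200 CPM in C4-2B control and at 6.15 and 7.95 CPM in shCtrl (log2 −4.83, SE 0.12, edgeR adjusted p = 5.33e-13). LAMB3, the beta chain of the same laminin, stood at 2.50 and 3.28 CPM against 20.9 and 33.1 CPM (log2 3.24, SE 0.22, edgeR adjusted p = 1.31e-08). These 2 chains thus differed between the lines in opposite directions. LAMC1, the gamma chain of most laminins, was lower in NCI-H660 (378 and 386 against 118 and 116 CPM, log2 −1.71, SE 0.08). LAMC3 had 290 and 220 counts in C4-2B control and 0 and 1 in shCtrl, a ratio of 359 (95% counting interval 64.1 to 14200). LAMA2, the muscle and nerve laminin chain, had no count in C4-2B control and was at least 149-fold higher in shCtrl. LAMA5, the widespread epithelial alpha chain, stood at 53.0 and 65.6 CPM against 56.6 and 83.9 CPM and did not pass (log2 0.25, SE 0.17, edgeR adjusted p = 0.204), and LAMA1 did not either (0.17, SE 0.21).

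Of the proteins that join laminin to its surroundings, NID1 had 1 and 0 counts in C4-2B control and 2912 and 3405 in shCtrl, a ratio of 8980 (95% counting interval 1610 to 355000). The second nidogen, NID2, had at most 6 counts in any library. HSPG2 and AGRN were higher in NCI-H660 by 1.44 (SE 0.17) and 0.98 (SE 0.14) on the log2 scale, and FN1, the adhesive glycoprotein of interstitial matrix, by 0.79 (SE 0.09). TNC (tenascin-C) had 0 and 6 counts in C4-2B control and 870 and 1008 in shCtrl (log2 8.71, SE 0.31, edgeR adjusted p = 1.52e-11), a size set by the few C4-2B counts, being 7.52 without C4-2B control replicate 1 and 12.91 without replicate 2. SPARC, a collagen-binding matricellular protein, was at 1.01 and 0.843 CPM against 7.27 and 7.95 CPM (log2 3.02, SE 0.31), and THBS1, thrombospondin-1, was lower in NCI-H660 (30.5 and 28.8 against 9.73 and 8.97 CPM, log2 −1.67, SE 0.13). In the control comparison a demand for 10 counts in every library left 22 matrix genes to test, since a gene absent from either line cannot meet it. Of these, 12 were higher and 7 lower, while 66.7% of all 12771 genes were called in either direction.

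**Figure D2:**
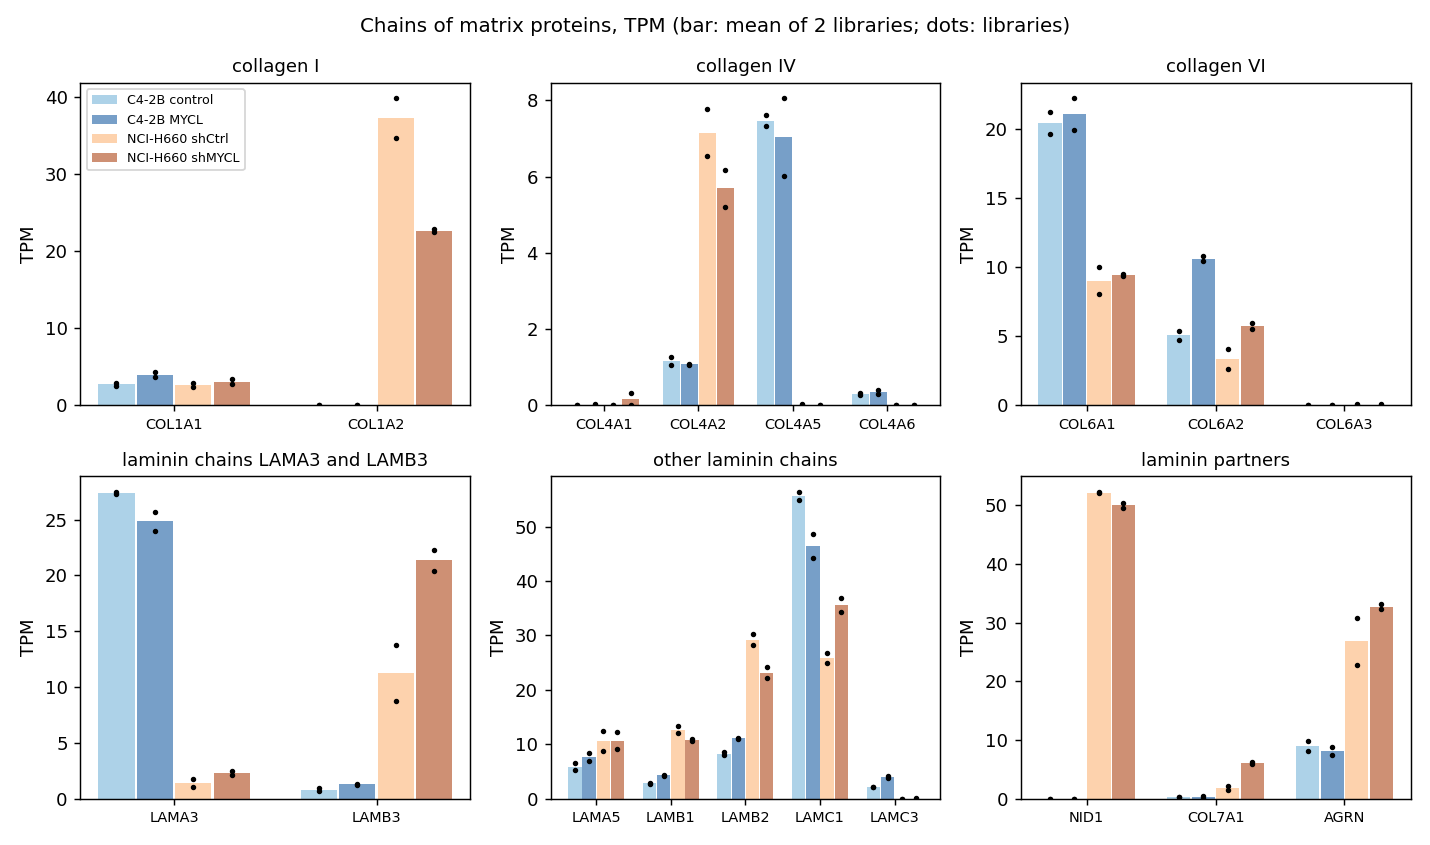
TPM of matrix chains that assemble or act together, with a bar for the mean of the 2 libraries of a group and a dot for each library, on axes that start at 0. COL1A2 and NID1 have bars in NCI-H660 alone, COL4A5 in C4-2B alone, COL4A1 has almost none beside COL4A2, and the LAMA3 and LAMB3 bars are both higher in shMYCL than in shCtrl.

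The second comparison asked which matrix genes changed when MYCL was raised in C4-2B. Of the 30 genes that passed the filter on low counts, 13 rose and 3 fell, or 53.3%, against 19.9% of all 16866 genes tested (11.8% higher and 8.12% lower, edgeR's quasi-likelihood test, thresholds as above). The median log2 fold change was 0.40 for these 30 genes and −0.002 for all genes, and 0.28 and −0.006 with the GC trend of every library taken out, where 10 rose and 3 fell. DESeq2 called 12 higher and 2 lower of the 30, against 17.5% of all genes. On log2(TPM + 1) limma called 5 and 1 of 22 matrix genes tested, against 20.9% of all genes. The fibroblast markers named above were higher in the MYCL libraries as well, from ACTA2 (0.260 and 0.222 CPM in control, 1.88 and 2.71 CPM in MYCL) and TAGLN (10.8 and 11.2, then 21.4 and 14.4 CPM), while 6 of the 11 were at 0 in every C4-2B library. Their part in the result was not tested.

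Among the collagens tested, 6 genes rose and 1 fell, while 11.8% of all genes rose and 8.12% fell. COL6A2, on chromosome 21 (GRCh38, chr21:46098112-46132848), stood at 13.1 and 14.9 CPM in control and 31.1 and 32.9 CPM in MYCL. Both MYCL libraries were above both controls, with a log2 fold change of 1.20 (SE 0.11, edgeR adjusted p = 9.76e-05). Its partner COL6A1 stood at 67.7 and 73.6 CPM, then 81.5 and 79.2 CPM (0.19, SE 0.08, adjusted p = 0.0878), so that of the 2 chains of this collagen tested COL6A2 passed and COL6A1 did not. COL16A1, a FACIT-related collagen on chromosome 1, was at 1.66 and 1.33 CPM in control and 6.20 and 6.69 CPM in MYCL (2.10, SE 0.26, adjusted p = 5.16e-04). COL13A1, a transmembrane collagen of cell junctions, was at 0.747 and 0.532 CPM, then 4.95 and 3.02 CPM (2.62, SE 0.40, adjusted p = 0.00129). The groups did not overlap for either gene.

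COL18A1, the basement membrane collagen from which endostatin is cut, rose from 3.05 and 3.95 to 7.68 and 7.42 CPM (1.12, SE 0.23, edgeR adjusted p = 0.00536). In the annotation 18.5% of its exon bases lie over SLC19A1 on the opposite strand, and the strand of counting is not given in the sources used here. COL1A1 rose from 10.5 and 12.4 to 19.5 and 18.5 CPM (0.74, SE 0.13, adjusted p = 0.00227), with COL1A2 still without a count. COL27A1, a fibrillar collagen, rose from 2 and 1 counts to 12 and 15, a ratio of 14.1 (95% counting interval 4.32 to 72.4). Its call was lost without control replicate 2 (edgeR adjusted p = 0.0574) and without MYCL replicate 2 (adjusted p = 0.0502).

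COL5A2, a chain of the collagen that limits fibril width, fell from 25 and 16 counts to 2 and 4 (−2.07, SE 0.65, edgeR adjusted p = 0.0351). That fall lost its call when any 1 of the 4 libraries was left out (−2.68 to −1.63, adjusted p from 0.0668 to 0.241). The collagen IV chains COL4A5 (0.06, SE 0.11), COL4A2 (0.05, SE 0.22) and COL4A6 (0.32, SE 0.33) did not pass. The remaining collagens tested in this line, COL2A1, COL7A1, COL9A2, COL9A3 and COL26A1, had log2 fold changes between −0.18 and 0.58 and did not pass either.

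The laminin beta chains rose together. LAMB1 went from 13 and 14.3 to 21.2 and 24.5 CPM (0.75, SE 0.12, edgeR adjusted p = 0.00152), LAMB2 from 39.3 and 41.1 to 57.5 and 60.8 CPM (0.56, SE 0.08, adjusted p = 9.90e-04) and LAMB3 from 2.50 and 3.28 to 4.44 and 5.67 CPM (0.82, SE 0.27, adjusted p = 0.0430). These are the 3 beta chains that were tested, of 4. LAMB3 was not called by DESeq2, nor by edgeR without control replicate 1 (0.62, adjusted p = 0.206) or without MYCL replicate 2 (0.63, adjusted p = 0.170). With the GC trend of every library taken out, LAMB2 stood at 0.43, under the minimum of 0.5, and LAMB3 at 0.70 (edgeR adjusted p = 0.0672).

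The alpha chains did not move as a group. LAMA1, the embryonic alpha chain, fell from 6.23 and 6.65 to 1.76 and 2.77 CPM (−1.50, SE 0.27, edgeR adjusted p = 0.00302). LAMA5 rose from 53.0 and 65.6 to 89.9 and 79.0 CPM (0.52, SE 0.11, adjusted p = 0.00706), a call lost without control replicate 1 (0.36), without MYCL replicate 1 (0.43) and with the GC trend taken out (0.30). LAMA3, the most abundant of them, stood at 204 and 200, then 191 and 192 CPM (−0.07, SE 0.07, adjusted p = 0.455). Of the gamma chains LAMC3 rose from 9.42 and 9.76 to 19.6 and 19.5 CPM (1.04, SE 0.12, adjusted p = 2.77e-04), while LAMC1 stood at 378 and 386, then 354 and 348 CPM (−0.12, SE 0.07, adjusted p = 0.212).

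Among the remaining glycoproteins, HSPG2 rose from 15.9 and 18.4 to 24.7 and 24.1 CPM (0.52, SE 0.11, edgeR adjusted p = 0.00614), a call lost without control replicate 1 (0.41) and with the GC trend taken out (0.33), and 11.7% of its exon bases lie over LDLRAD2 on the opposite strand. AGRN did not pass (51.5 and 62.2, then 58.6 and 54.3 CPM, log2 0.00, SE 0.10). FN1 went from 182 and 202 to 270 and 266 CPM (0.49, SE 0.08, adjusted p = 0.00155) and missed only the minimum on the fold change. It was called without control replicate 2 (0.56), without MYCL replicate 2 (0.50) and with the GC trend taken out (0.54). SPARC rose from 1.01 and 0.843 to 2.22 and 2.59 CPM (1.37, SE 0.37, adjusted p = 0.0187), a call lost without control replicate 2 (1.25, adjusted p = 0.0710) or MYCL replicate 2 (1.26, adjusted p = 0.0711). THBS1, an antiangiogenic and TGF-beta activating protein, fell from 30.5 and 28.8 to 12.8 and 12.9 CPM (−1.20, SE 0.10, adjusted p = 8.32e-05), and FBN1, the main microfibril protein, stood at 2.73 and 2.48, then 1.37 and 1.57 CPM (−0.82, SE 0.32, adjusted p = 0.0746).

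**Figure D3:**
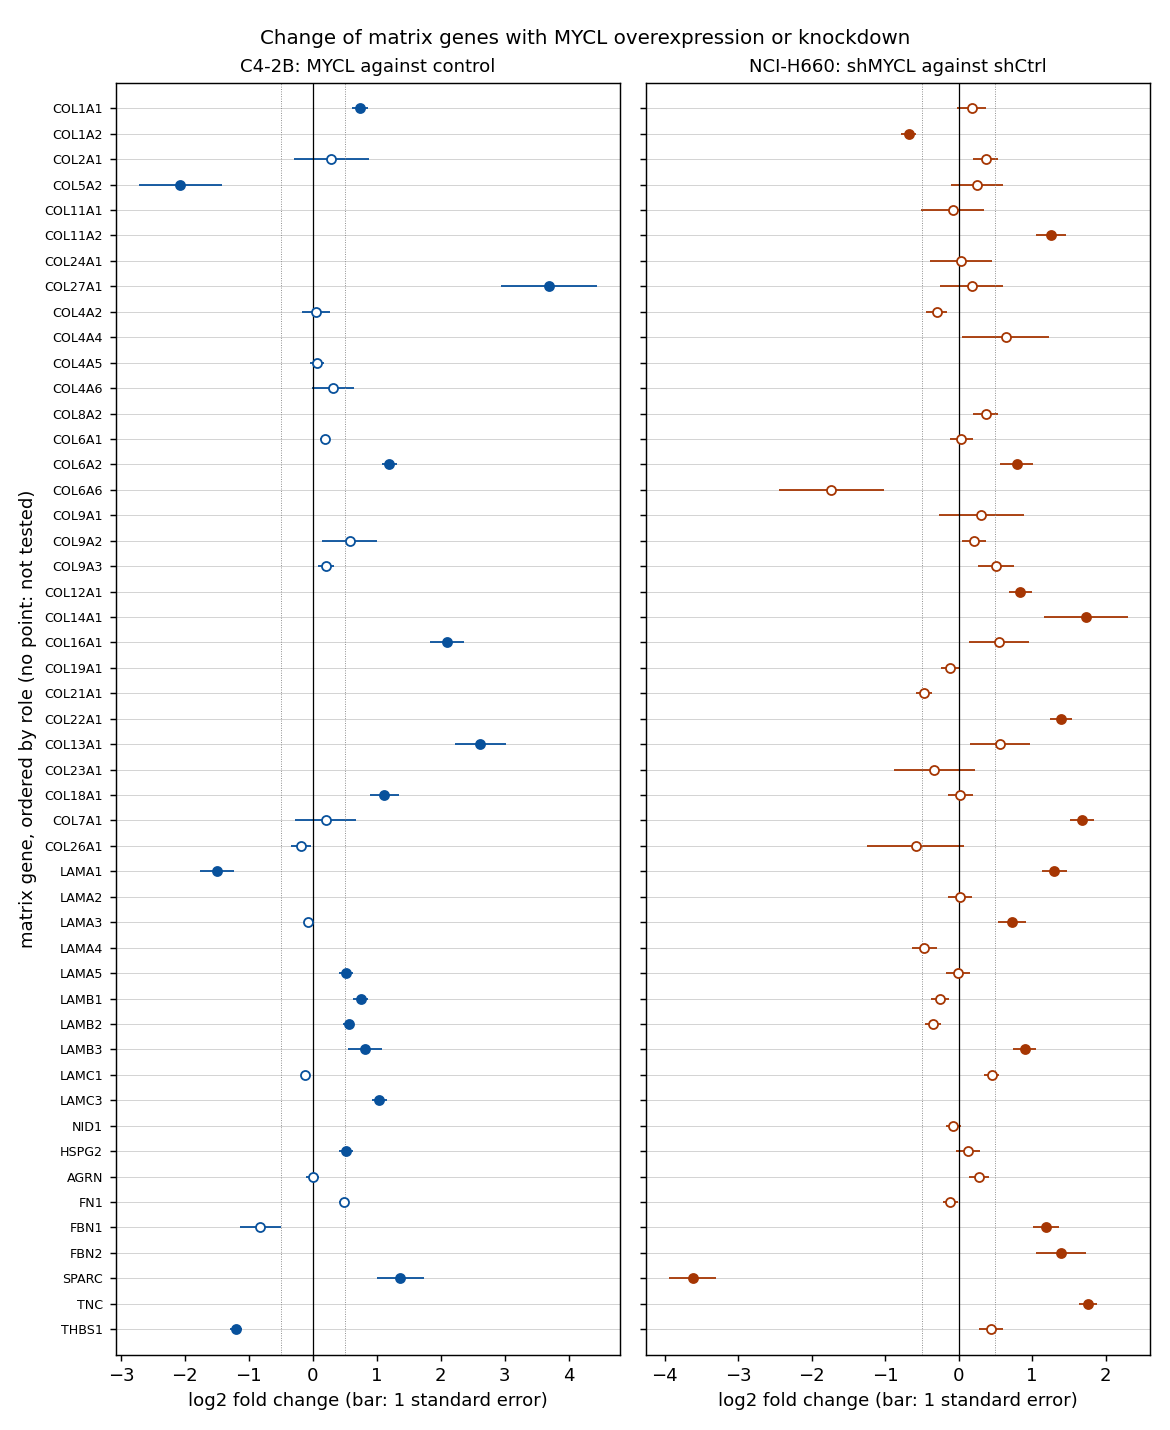
Log2 fold changes of matrix genes with 1 standard error, MYCL against control in C4-2B on the left and shMYCL against shCtrl in NCI-H660 on the right, ordered by role, with filled points for genes called and dotted lines at the minimum change of 0.5. The 3 beta chains of laminin lie right of the line in C4-2B, TNC and COL7A1 lie far right and SPARC far left in NCI-H660, and SPARC lies right of 0 in C4-2B.

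The third comparison asked which matrix genes changed when MYCL was lowered in NCI-H660. Of the 47 genes tested, 13 rose and 2 fell, or 31.9%, against 16.2% of all 16980 genes (7.18% higher and 8.99% lower, edgeR's quasi-likelihood test). The median log2 fold change was 0.25 for the matrix genes and −0.003 for all genes, and 0.13 and −0.019 with the GC trend of every library taken out, where 13 rose and 2 fell. DESeq2 called 12 higher and 2 lower of the 47, against 12.1% of all genes. On log2(TPM + 1) with libraries centred on their median limma called 5 higher and 2 lower of 36, against 5.52% of all genes. Of the 11 fibroblast and smooth muscle markers, which summed to 4.58 and 5.10 CPM in shCtrl and 5.08 and 8.23 CPM in shMYCL, PDGFRB, DCN, PDPN and THY1 were at 0 in all 4 libraries. LUM stood at 1.45 and 1.73, then 0.685 and 0.907 CPM, ACTA2 at 0.224 and 0.51, then 0 and 0 CPM, and TAGLN at 2.40 and 2.24, then 7.04 and 3.81 CPM. Their part in the result was not tested.

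SPARC (GRCh38, chr5:151661096-151686975) had the largest change. It had 130 and 156 counts in shCtrl and 9 and 11 in shMYCL, or 7.27 and 7.95 CPM against 0.561 and 0.665 CPM. Both knockdown libraries lay far below both controls, with a log2 fold change of −3.62 (SE 0.32, edgeR adjusted p = 1.77e-06). TNC (chr9:115019575-115118207) moved the other way, from 48.6 and 51.4 CPM to 184 and 154 CPM (1.76, SE 0.12, adjusted p = 8.32e-08), and became one of the most abundant matrix transcripts of the line, with between 9.07% and 9.91% of matrix counts. THBS1 stood at 9.73 and 8.97, then 12.2 and 13.2 CPM (0.44, SE 0.16, adjusted p = 0.0585).

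The alpha and beta chains of the hemidesmosome laminin rose. LAMA3 (chr18:23689453-23956222) went from 6.15 and 7.95 to 12.2 and 11.3 CPM (0.73, SE 0.19, edgeR adjusted p = 0.00992). LAMB3 (chr1:209614870-209652425) went from 20.9 and 33.1 to 49.2 and 52.4 CPM (0.90, SE 0.16, adjusted p = 9.96e-04). In each case both knockdown libraries were above both controls. COL7A1, the anchoring fibril collagen that binds this laminin in skin (chr3:48564073-48595329), rose from 8.05 and 11.9 to 32.8 and 31.6 CPM (1.68, SE 0.16, adjusted p = 4.34e-06). The 2 subunits of an integrin that binds this laminin rose too, ITGA6 from 18 and 19.2 to 29.1 and 29.9 CPM (0.66, SE 0.13, adjusted p = 0.00145) and ITGB4 from 7.60 and 10.2 to 13.3 and 12.5 CPM (0.52, SE 0.18, adjusted p = 0.0428). ITGA3, another integrin subunit for laminin, moved the other way, under the minimum change (−0.47, SE 0.13, adjusted p = 0.0137). ITGB1 did not pass (−0.18, SE 0.11, adjusted p = 0.229). Per length, LAMB3 reached 20.4 and 22.3 TPM in shMYCL and LAMA3 2.45 and 2.13 TPM.

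Of the other laminin chains, LAMA1 rose from 6.82 and 7.70 to 20.2 and 15.6 CPM (1.30, SE 0.17, edgeR adjusted p = 8.12e-05). In the annotation 10.3% of its exon bases lie over a gene on the opposite strand. LAMC1 stood at 118 and 116, then 166 and 155 CPM (0.45, SE 0.10, adjusted p = 0.00450), under the minimum change. LAMB2 (−0.35, SE 0.11, adjusted p = 0.0306), LAMA5 (−0.01, SE 0.16, adjusted p = 0.983), LAMB1 (−0.25, SE 0.12), LAMA2 (0.02, SE 0.16) and LAMA4 (−0.47, SE 0.17) did not pass.

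Among the collagens, COL1A2 fell from 101 and 98.8 to 64.3 and 60.7 CPM (−0.68, SE 0.10, edgeR adjusted p = 2.52e-04), while COL1A1 stood at 7.94 and 7.34, then 9.85 and 7.56 CPM (0.18, SE 0.20, adjusted p = 0.534). COL22A1 rose from 8.05 and 10.5 to 24.4 and 24.6 CPM (1.39, SE 0.15, adjusted p = 1.71e-05), COL11A2 from 5.14 and 8.62 to 17.2 and 16.0 CPM (1.26, SE 0.20, adjusted p = 3.95e-04) and COL12A1 from 32.2 and 22.2 to 54.1 and 43.3 CPM (0.84, SE 0.16, adjusted p = 0.00137). COL6A2 rose from 4.47 and 7.24 to 10.6 and 9.74 CPM (0.79, SE 0.22, adjusted p = 0.0174), a call lost without shCtrl replicate 1 (0.49, adjusted p = 0.0819). COL14A1, a FACIT collagen, had 5 and 9 counts in shCtrl and 17 and 24 in shMYCL (1.73, SE 0.57, adjusted p = 0.0346), and its call was lost when any 1 library was left out (1.44 to 2.14, adjusted p from 0.0665 to 0.315). COL6A1 (0.04, SE 0.15) and COL16A1 (0.55, SE 0.41, adjusted p = 0.355) did not pass.

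The fibrillins, which build elastic microfibrils, rose together. FBN1 went from 7.49 and 7.14 to 19.6 and 13.8 CPM (1.19, SE 0.18, edgeR adjusted p = 2.91e-04) and FBN2 from 1.45 and 1.38 to 3.68 and 3.75 CPM (1.39, SE 0.34, adjusted p = 0.00800). Of the abundant glycoproteins FN1, NID1 and AGRN did not pass. FN1 stood at 326 and 337, then 320 and 296 CPM (−0.11, SE 0.10, adjusted p = 0.478), NID1 at 163 and 174, then 162 and 159 CPM (−0.07, SE 0.10, adjusted p = 0.657), and AGRN at 92.4 and 132, then 135 and 138 CPM (0.28, SE 0.14, adjusted p = 0.155). Without shMYCL replicate 1, 4 matrix genes fell rather than 2, the further ones being COL21A1 (−0.52) and COL6A6 (−3.79). With the replicate block COL6A6 was also called (−1.84, edgeR adjusted p = 0.0492). Without shCtrl replicate 2, AGRN (0.56), COL8A2 (0.63) and COL9A3 (0.93) were called higher and LAMA4 (−0.62) lower. LAMC1 (0.51) and LAMB4 (3.62) were called without shMYCL replicate 2 and THBS1 (0.50) without shCtrl replicate 1.

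The effects in the lines were then set side by side for the 27 matrix genes tested in both. COL6A2 and LAMB3 rose both when MYCL was raised in C4-2B and when it was lowered in NCI-H660. SPARC and LAMA1 were called in opposite directions. SPARC was higher with more MYCL in each line, and LAMA1 lower with more MYCL in each line. Whether the effect of high against low MYCL differed between the lines was tested directly, as the difference of MYCL against control in C4-2B and shCtrl against shMYCL in NCI-H660. It differed for 13 of 51 matrix genes, or 25.5%, against 17.9% of all 19605 genes (9.59% higher and 8.33% lower, edgeR's quasi-likelihood test), and 11 of the 13 were among the 27. For LAMA1 this difference did not pass (−0.21, SE 0.32, adjusted p = 0.729), nor for FBN1 (0.36, SE 0.35, adjusted p = 0.535).

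For COL6A2 the difference was 1.98 (SE 0.26, edgeR adjusted p = 2.31e-04) and for LAMB3 1.73 (SE 0.32, adjusted p = 0.00233), as changes of the same sign with opposite shifts of MYCL add up. COL16A1 gave 2.66 (SE 0.52, adjusted p = 0.00363), COL13A1 3.17 (SE 0.62, adjusted p = 0.00335) and COL18A1 1.14 (SE 0.28, adjusted p = 0.0124), genes that rose with MYCL in C4-2B and did not pass in NCI-H660. COL7A1 gave 1.88 (SE 0.47, adjusted p = 0.0130), which was 0.85 and not called without C4-2B MYCL replicate 1 (adjusted p = 0.251), the C4-2B MYCL libraries standing at 3.53 and 1.15 CPM. SPARC gave −2.26 (SE 0.47, adjusted p = 0.00510), its fall after knockdown being larger than its rise with overexpression, and THBS1 −0.76 (SE 0.18, adjusted p = 0.0102).

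**Figure D4:**
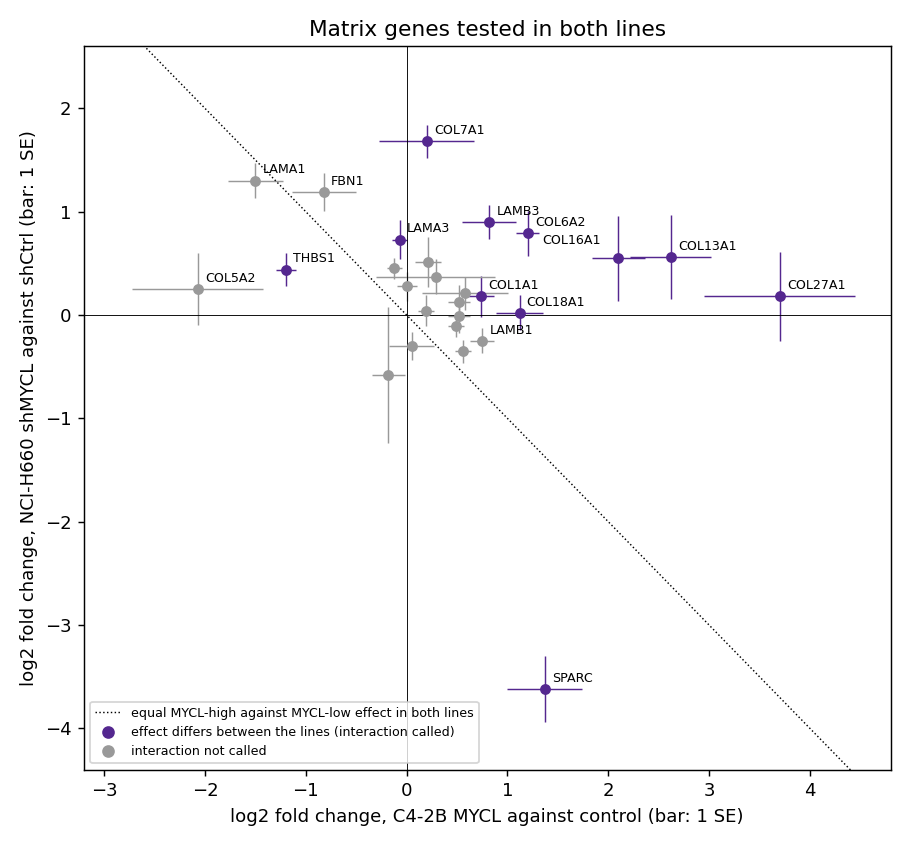
Log2 fold change in C4-2B (MYCL against control, horizontal) against that in NCI-H660 (shMYCL against shCtrl, vertical) for the 27 matrix genes tested in both, with bars of 1 standard error, purple where the effect of MYCL differed between the lines. The dotted line marks an equal effect of high against low MYCL, and LAMA1 lies close to it, while COL6A2 and LAMB3 lie above 0 on both axes and SPARC lies lower right.

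Of the 18 enzymes and chaperones of collagen folding tested in C4-2B, 5 rose with MYCL and 13 did not pass, with a median log2 fold change of 0.22, while 11.8% of all genes rose. P4HA1, the catalytic subunit of prolyl 4-hydroxylase, went from 156 and 150 to 518 and 467 CPM (1.69, SE 0.08, edgeR adjusted p = 4.69e-06). P4HA2 (0.88, SE 0.10), the lysyl hydroxylase PLOD2 (0.73, SE 0.14) and P3H3 (1.96, SE 0.43), related to the prolyl 3-hydroxylases, rose as well, and so did SEC24D, a coat protein of secretory vesicles (0.52, SE 0.14). In NCI-H660, 3 of 19 fell and 16 did not pass, with a median of −0.19, while 8.99% of all genes fell. P4HA1 went from 230 and 270 to 140 and 182 CPM (−0.64, SE 0.13, adjusted p = 0.00211), PLOD2 from 743 and 833 to 397 and 488 CPM (−0.84, SE 0.12, adjusted p = 1.31e-04) and CRTAP, a partner of prolyl 3-hydroxylation, fell by 0.61 (SE 0.11).

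Between the control lines the chaperone SERPINH1 showed one of the widest contrasts. It had 6 and 2 counts in C4-2B control and 1490 and 1678 in shCtrl (log2 9.08, SE 0.21, edgeR adjusted p = 3.44e-13), and 13 and 8 in C4-2B MYCL. P4HA3 (7.15, SE 0.55) and P3H3 (5.46, SE 0.24) were also higher in NCI-H660. C4-2B thus carried COL1A1, COL6A1 and COL4A5 RNA with SERPINH1 RNA below 1 CPM in every library.

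Of the genes that process and cross-link collagen, 4 of 11 tested rose with MYCL in C4-2B and 7 did not pass (median 0.44, with 11.8% of all genes higher). They were the procollagen proteinase enhancers PCOLCE (1.69, SE 0.33) and PCOLCE2 (1.21, SE 0.35), the lysyl oxidase-like LOXL2 (1.24, SE 0.40) and the transglutaminase TGM2, which went from 0 and 6 counts to 19 and 25. In NCI-H660, 2 of 12 rose and 3 fell (median −0.08, with 7.18% of all genes higher and 8.99% lower). LOX, the founding lysyl oxidase, went from 9.11 and 11.8 to 4.11 and 4.36 CPM (−1.31, SE 0.21, edgeR adjusted p = 4.00e-04). TLL2 fell by 0.74 (SE 0.16) and LOXL1 by 0.52 (SE 0.17), while PCOLCE2 (1.60, SE 0.41) and LOXL3 (0.94, SE 0.14) rose.

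Of the 13 collagen and laminin receptors tested in C4-2B, 4 rose and 2 fell with MYCL (median 0.15, with 11.8% of all genes higher and 8.12% lower). ITGA3, an integrin subunit for laminin, went from 3.18 and 4.92 to 9.33 and 9.95 CPM (1.27, SE 0.24, edgeR adjusted p = 0.00359), and the laminin receptor BCAM from 7.92 and 9.05 to 16.2 and 13.5 CPM (0.82, SE 0.15), with ITGB4 (0.68, SE 0.23) and SDC4, a syndecan (0.66, SE 0.08), as the others that rose. The collagen receptor DDR2 fell by 0.95 (SE 0.16) and DAG1, dystroglycan, by 0.52 (SE 0.07). In NCI-H660 4 of 13 rose and 9 did not pass (median 0.13, with 7.18% of all genes higher). Beside ITGA6 and ITGB4 they were ITGA1, a collagen-binding integrin subunit (0.76, SE 0.15), and DDR2, which went from 25 and 26 counts to 37 and 57 (1.07, SE 0.38, adjusted p = 0.0497).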

How the data were processed

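The authors deposited estimated counts per gene, not normalized between libraries (22.4% of values above 0 were fractional at a tolerance of 0.01), and TPM values. The paper describes these TPM as counts divided by gene length and scaled. The length applied to a gene was not the same in every library. In C4-2B control CRTAP stood at 134 CPM and 43.8 TPM, then 132 CPM and 48 TPM. PLOD1 stood at 137 CPM and 56.2 TPM, then 128 CPM and 53 TPM. Per the labels the build is hg38. The aligner, the counter and the strand of counting are not given in the sources used here. Libraries were poly(A)-selected and paired-end. Counts were rounded and tested with edgeR 4.0.16 (R 4.3.3; TMM, filterByExpr, quasi-likelihood test, Benjamini-Hochberg adjustment over all genes tested), each line on its own and the control and between-line contrasts in a fit of all 8 libraries. Normalized CPM use the factors of the 8 libraries. A call needed an adjusted p below 0.05 and an absolute log2 change of 0.5 or more. Each standard error (SE) is the absolute log2 change over the square root of the F value of edgeR's test. It can be very large where a line had no count, such as 2072.95 for COL22A1 in the difference between the lines.

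Alternatives were DESeq2 1.42.0, limma 3.58.1 on TPM, other filters, factors and thresholds, a replicate block and leaving out each library. Centred TPM and removal of each library's GC trend were chosen after seeing the data. The scripts were tested on simulated data. No effect shared by replicate number was seen, as the replicate 1 minus 2 differences of the groups of a line correlated at 0.02. This cannot show whether the libraries were made in pairs. In shCtrl that difference followed the GC content of genes (Spearman correlation −0.43), against −0.12 to 0.09 in the other groups. Counting intervals and limits cover counting error only. Up to 12 called genes per comparison with the largest change and a mean of at least 1 CPM, the most abundant uncalled genes, COL1A1, COL6A2, COL16A1 and every gene of the between-line test were named, and others were added by role after their values were seen. Genes and lists were chosen with earlier results of these data known. Positions and overlaps are from GENCODE 44, with all 67 genes found. Tables were handled with pandas 2.3.3 and figures with matplotlib 3.10.9 (Python 3.11.15). Values of some genes are not reported here, although counts of genes include them.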

Additional observations from a re-analysis of the deposited data

Results flagged for a closer look

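The effect of high against low MYCL differed between C4-2B and NCI-H660 for 13 matrix genes in edgeR's test of the difference itself, given here as the log2 effect in C4-2B minus that in NCI-H660. It was positive for COL14A1 (6.02), COL27A1 (3.86), COL13A1 (3.17), COL16A1 (2.66), COL11A2 (2.00), COL6A2 (1.98), COL7A1 (1.88), LAMB3 (1.73), COL18A1 (1.14), COL1A1 (0.92) and LAMA3 (0.65). It was negative for SPARC (−2.26) and THBS1 (−0.76). The value of COL14A1 rests on C4-2B libraries with 0, 0, 3 and 1 counts and is no measure of size. Its call was lost in 6 of the 8 fits without 1 library, and that of COL11A2 in 5 of 8. COL1A1 was not called without C4-2B control replicate 1 (0.79) or NCI-H660 shMYCL replicate 1 (0.71), COL18A1 without C4-2B control replicate 1 (0.95), COL7A1 without C4-2B MYCL replicate 1 (0.85), and LAMA3 without NCI-H660 shCtrl replicate 1 (0.47) or shMYCL replicate 1 (0.59). COL6A2, COL13A1, COL16A1, COL27A1, LAMB3, SPARC and THBS1 kept their calls in all 8 fits without 1 library. The value of COL27A1 rests on 3 counts in the C4-2B control libraries together. Its call within C4-2B was lost without control replicate 2 or MYCL replicate 2.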

How the results depend on the processing

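With 2 libraries per group, genes with few counts carry wide errors, and 17 of the 67 genes were tested in neither line on its own. Values under an alternative were tallied for part of the named genes. These were the called genes with the largest changes, COL1A1, COL6A2 and COL16A1 within each line, and the genes of the between-line test. Of 820 such values, 722 kept direction and call, 97 kept direction and lost the call, and 1 reversed. That was COL1A1 in NCI-H660, which was not called (0.18, and −0.01 to 0.37 without 1 library, the lowest without shMYCL replicate 1). The tally leaves out other calls, such as those of COL5A2, COL27A1, LAMA5 and HSPG2 in C4-2B and of COL14A1 in NCI-H660, and most uncalled genes. In C4-2B 13 matrix genes rose and 3 fell. Limma called 5 and 1 of 22 on log2(TPM + 1), against 20.9% of all genes, and 7 and 1 of 22 on log2(TPM + 0.1), against 20%. Without a filter on TPM it called 4 and 2 of 59, against 6.08%, and on centred TPM 9 and 1 of 22, against 17.7%. A minimum log2 change of 1 left 7 higher and 3 lower of 30, against 8.37% of all genes. In NCI-H660 13 rose and 2 fell. Limma called 5 and 1 of 36 on log2(TPM + 1), against 5.67% of all genes, and 1 and 1 of 36 on log2(TPM + 0.1), against 1.44%. On centred TPM it called 5 higher and 2 lower of 36, against 5.52%. Without a filter it called 0 and 0, and 2 of all 29413 genes. With no minimum change edgeR called 14 higher and 4 lower of 47, against 24.8% of all genes. The count of lower genes there was 1 with at least 10 counts in every library, 1 with a minimum log2 change of 1 and 4 with none. Between the controls 36 were higher and 11 lower. A demand for 10 counts in every library left 12 and 7 of 22, against 66.7% of all genes. Centred TPM gave 23 and 11 of 40, against 66.3%, with a median log2 difference of 0.74 for the matrix genes and −0.224 for all. The TPM scale moved the median of all genes by −0.142 in C4-2B, 0.013 in NCI-H660 and 0.525 between the controls (log2). The cause of these shifts was not tested. Leaving out 1 library gave 10 to 12 higher and 2 lower in C4-2B, 12 to 15 and 2 to 4 in NCI-H660, 34 to 37 and 10 to 12 between the controls and 9 to 17 for the difference between the lines. The replicate block, on numbers with no shared effect seen, gave 13 higher and 3 lower in C4-2B, 13 and 3 in NCI-H660, 34 and 10 between the controls, and 14 differences between the lines.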

Other observations

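Several matrix genes stayed near the floor in every library. COL3A1, the partner of collagen I in soft tissue, had at most 4 counts in any C4-2B library and none in NCI-H660, COL5A3 at most 2 counts and COL17A1, a hemidesmosome collagen, at most 9. LAMB4 had 1 and 2 counts in shCtrl and 17 and 5 in shMYCL, a ratio of 8.44 (95% counting interval 2.54 to 44.1), and did not pass the filter on low counts, except without shMYCL replicate 2, where it was called (3.62). COL5A1 had 3 and 19 counts in the C4-2B MYCL libraries, an unequal pair, against 5 and 7 in control.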
